A study of Rattus norvegicus with 8 samples.

Results

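The genes described here build, store and break down glycogen, the branched glucose polymer that liver keeps as its fuel reserve. The set is given by symbol as Pygl, Gys2, Gyg1, Gbe1, Ppp1r3b, Ppp1r3c, Phka2, Phkg2 and Pgm1, and every array probe whose RefSeq transcript mapped to one of these 9 symbols was taken. Of the 9 genes 8 had a probe, 1 each, and Phka2, for the liver alpha subunit of phosphorylase kinase, was not analysed here because no probe matched it. All 8 probes were well above background in the liver channel on all 8 arrays and passed the filter on dim probes, among 9619 genes with a symbol and 15201 genes and unnamed features tested in all. The donors were grown male rats of the Sprague-Dawley strain. For 28 days 4 of them were fed PFOS, the potassium salt of perfluorooctanesulfonate, a persistent surfactant, at 50 mg/kg in the diet, and 4 were fed the control diet. No rat carried a transgene or other allele named in the labels. Liver RNA was labelled with Cy5 and hybridised beside a commercial pool of rat RNA labelled with Cy3, a common reference, with 1 array for each rat. A log2 ratio below is log2 of Cy5 over Cy3, so that 0 means as bright as the pool after normalisation, and Cy5 alone is the liver signal without division by the pool.

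Glycogenin starts a glycogen particle by adding glucose to itself, glycogen synthase lengthens the chains and the branching enzyme makes the branch points. Glycogen phosphorylase shortens the chains to release glucose 1-phosphate, which phosphoglucomutase interconverts with glucose 6-phosphate. Glucagon and adrenaline act through cyclic AMP, protein kinase A and phosphorylase kinase to switch phosphorylase on, and protein phosphatase 1, brought to the particle by glycogen-targeting subunits, reverses this and switches the synthase on. These switches act on proteins, which the arrays did not measure.

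The arrays had a median Cy5 brightness of 116 to 160 units over a local background of 71 to 75 units, and their number limits the precision, with a median standard error of a log2 change of 0.11. The arrays came from 1 slide with 2 rows of 4 arrays, each row holding 2 arrays of each diet, and row 1 was brighter in Cy5 (154.5 to 160 units) than row 2 (116 to 138 units). The tissue label was checked on 8 hepatocyte markers, which all passed the filter, of which none was called in the ratio and 1 was called lower in Cy5. Of 6 skeletal muscle markers 5 had a probe. Ckm, Myh1 and Myh4 were above background on no array, while 1 of the 5 passed the filter. Because whole liver was used, fewer cells of a type and less RNA per cell cannot be told apart. Summed Cy5 levels of 4 tested sinusoidal endothelial markers were 12.33 to 12.86 on the log2 scale in PFOS and 12.73 to 13.61 in control livers, and those of 6 Kupffer cell markers 14.03 to 14.76 in PFOS and 14.23 to 14.91 in control livers. All 4 tested blood markers were below 0, with a median change of -0.31 in the ratio and -0.32 in Cy5, and their summed Cy5 level was 14.94 to 15.19 in PFOS and 15.01 to 15.89 in control livers. Likewise below 0 were all 4 endothelial markers in the ratio and in Cy5, and 6 of 6 Kupffer cell markers in the ratio and 5 in Cy5. Of all features 52.3% were below 0 in the ratio and 50.9% in Cy5. The median ratio change was -0.50 for the endothelial and -0.24 for the Kupffer cell markers. None of these markers was called (limma). In the ratio 2 endothelial markers had an unadjusted p under 0.05 and no Kupffer cell or blood marker did, and in Cy5 1 endothelial and 1 blood marker did. The part of these cell types in the results below was not tested. The summed level of the hepatocyte markers was 19.98 to 20.07 in PFOS and 20.07 to 20.21 in control livers. Of these 8 markers 3 had an unadjusted p under 0.05 in the ratio and 3 in Cy5 (limma), where all features had 19.9% and 20.6%. In Cy3 1 of the 8 was called, against 0.0789% of all features.

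Across the 8 measured genes, 1 was lower in PFOS livers in the ratio, Pygl, and 1 in Cy5 alone, Gbe1 (limma, Benjamini-Hochberg adjusted p under 0.05 over all features). None was higher. Of all features tested 3.99% were called in the ratio (1.84% higher and 2.14% lower in PFOS) and 4.81% in Cy5 alone (2.39% higher and 2.42% lower), and with 8 genes a count of 1 says little against that background. The diets did not overlap for 2 of the 8 genes in the ratio, both lower in PFOS, against 12.8% of all features (6.89% lower and 5.91% higher). In Cy5 alone they did not overlap for 2 genes, both lower, against 13.2% (6.89% lower). An unadjusted p under 0.05 was found for 3 of the 8 genes in the ratio and 3 in Cy5, against 19.9% and 20.6% of all features. Log2 changes were below 0 for 7 of the 8 genes in the ratio, against 52.3% of all features, with a median of -0.14 against -0.01 for all features. The same count in Cy5 alone was 7 of 8, against 50.9% of all features, again with a median of -0.14. The pool's RNA was the same on every array, so its Cy3 signal is given beside the liver values.

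**Figure D1:**
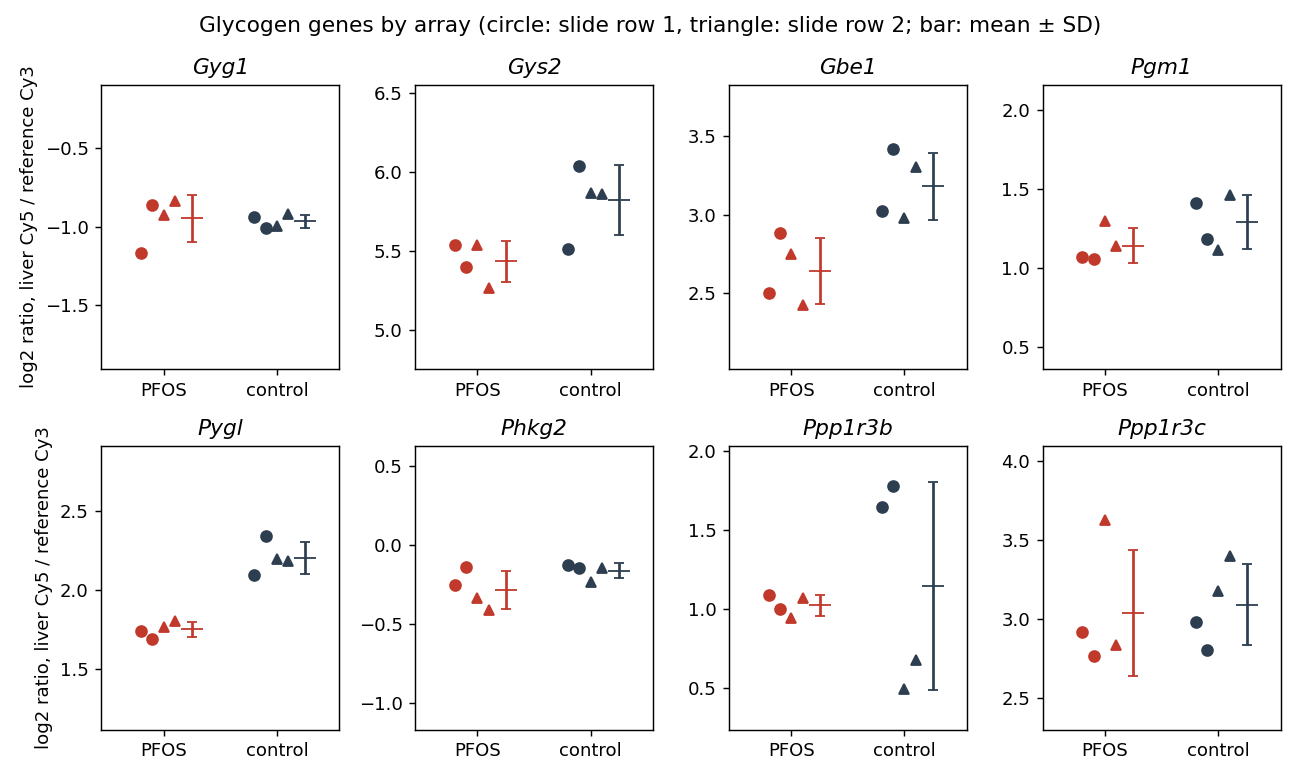
Log2 ratio of liver Cy5 over reference Cy3 for the 8 measured glycogen genes, a point for each rat, with PFOS left of control in each panel and a bar for the mean ± SD (n = 4 each). Each vertical axis spans the same log2 range; Pygl and Gbe1 separate the diets completely, while the 4 control values of Ppp1r3b lie apart by slide row.

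Pygl encodes liver glycogen phosphorylase, the enzyme that starts glycogen breakdown. Its log2 ratio was 1.74, 1.69, 1.77 and 1.80 in the 4 PFOS livers, against 2.09, 2.34, 2.20 and 2.18 in the 4 control livers. Every PFOS value lay below every control value. The mean was 1.75 ± 0.05 in PFOS and 2.20 ± 0.10 in control livers (SD, n = 4 each), so that it fell by 0.45 in log2 units (SE 0.08, limma adjusted p = 0.0150), a level 1.37-fold lower in PFOS. The 95% interval of the change ran from -0.63 to -0.28. In Cy5 alone the values were 10.41, 10.51, 10.37 and 10.65 in PFOS, against 10.60, 11.10, 10.94 and 11.19 in control livers. Here the lowest control value, of control 1, lay inside the PFOS range, and the change of -0.47 (SE 0.13) was not called (limma adjusted p = 0.0719). Without control 1 it was -0.59 and was called (limma adjusted p = 0.0188). The Cy3 change of Pygl was -0.01 (SE 0.09). The ratio's call held with each array left out in turn, at -0.49 to -0.41. It was lost with median centring in place of loess (-0.44, limma adjusted p = 0.223), with scaling between arrays (-0.39, limma adjusted p = 0.109) and with slide column as a block (-0.45, limma adjusted p = 0.0683).

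The 250 bases before the RefSeq transcript start of Pygl, Gbe1 and Gys2 are shown because these 3 genes had the lowest p-values of the 8. They are from RefSeq's GRCr8 assembly, at chr6:94476220-94476469 (minus strand) for Pygl, chr11:22181026-22181275 (plus strand) for Gbe1 and chr4:177137237-177137486 (minus strand) for Gys2. Capitals mark the 1 match among the motifs searched, a direct repeat of the nuclear receptor site AGGTCA with 1 changed letter.
Pygl: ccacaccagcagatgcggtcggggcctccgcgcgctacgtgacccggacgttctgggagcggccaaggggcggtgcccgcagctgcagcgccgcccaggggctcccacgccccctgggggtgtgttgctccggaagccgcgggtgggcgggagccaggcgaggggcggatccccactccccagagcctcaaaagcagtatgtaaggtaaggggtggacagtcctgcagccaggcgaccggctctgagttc
Gbe1: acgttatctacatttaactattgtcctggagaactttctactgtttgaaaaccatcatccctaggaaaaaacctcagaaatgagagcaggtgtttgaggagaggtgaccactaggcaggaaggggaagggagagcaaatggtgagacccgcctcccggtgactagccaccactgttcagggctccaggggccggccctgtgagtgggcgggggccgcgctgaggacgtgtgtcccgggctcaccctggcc
Gys2: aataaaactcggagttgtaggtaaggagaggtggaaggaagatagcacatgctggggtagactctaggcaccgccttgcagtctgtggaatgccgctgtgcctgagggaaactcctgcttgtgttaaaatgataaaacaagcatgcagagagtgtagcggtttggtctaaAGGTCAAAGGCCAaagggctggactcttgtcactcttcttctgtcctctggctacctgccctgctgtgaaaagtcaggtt

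The windows of Pygl and Gbe1 held none of the motifs searched on both strands. These were the E-box CACGTG (5.59% of 33469 such windows in the table), the cAMP response element TGACGTCA (1.59%) and its shorter core TGACG (18.2%), the forkhead motif GTAAACA (3.21%), CCAAT (34% of windows), and the direct repeat of the receptor site AGGTCA with 1 base between its copies (0.0508%), which PPAR and HNF4 receptors bind. The single site AGGTCA (14.1%) and the repeat with at most 1 changed letter (0.368%), which overlap each other, were added after the sequences were seen. Gys2 held both, from -80 to -68 relative to its start. Among the other genes with a window, Gyg1 and Ppp1r3c each held 1 E-box, at -99 to -94 and at -54 to -49, and the E-box of Gyg1 overlapped a TGACG. The letters CCAAT were present for Ppp1r3c, Phkg2 and Pgm1. A match of letters describes the sequence and shows no binding.

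Gbe1 encodes the glycogen branching enzyme. Its log2 ratio was 2.50, 2.88, 2.75 and 2.43 in PFOS, against 3.02, 3.41, 2.98 and 3.30 in control livers. The groups did not overlap, though the highest PFOS value and the lowest control value lay close together. The mean was 2.64 ± 0.21 in PFOS and 3.18 ± 0.21 in control livers (SD, n = 4 each), and the change of -0.54 (SE 0.14) was not called (limma adjusted p = 0.0654), with a 95% interval of -0.84 to -0.23. In Cy5 alone the values were 9.37, 9.75, 9.67 and 9.38 in PFOS, against 10.02, 10.26, 9.81 and 10.20 in control livers. Again the groups did not overlap. The Cy5 level fell by 0.53 in log2 units (SE 0.13, limma adjusted p = 0.0446), which is 1.44-fold. This call was lost without PFOS 1, PFOS 3, PFOS 4, control 1, control 2 or control 4, where the 8 fits that each drop an array gave -0.62 to -0.47 and adjusted p-values up to 0.117. It was also lost with 75th percentile scaling, with the scanner software's processed signal and with slide row or column as a block, at -0.56 to -0.53. In the ratio Gbe1 was below 0 under all 24 alternatives, at -0.62 to -0.45, and called under none.

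Gys2 encodes liver glycogen synthase, which lengthens the chains. It stood far above the pool, with log2 ratios of 5.53, 5.40, 5.54 and 5.26 in PFOS, against 5.51, 6.04, 5.87 and 5.86 in control livers. Control 1 lay within the PFOS range and the other controls above it. The mean was 5.43 ± 0.13 in PFOS and 5.82 ± 0.22 in control livers (SD, n = 4 each), and the change of -0.39 (SE 0.12) was not called (limma adjusted p = 0.123). In Cy5 alone the values were 13.74, 13.71, 13.73 and 13.43 in PFOS, against 13.80, 14.27, 14.08 and 14.14 in control livers, with no overlap. That change of -0.42 (SE 0.12) was not called either (limma adjusted p = 0.0736), and without control 1 it was -0.51 and called (limma adjusted p = 0.0332). The Cy3 change of Gys2 was 0.01 (SE 0.03). The 95% interval of the ratio's change ran from -0.66 to -0.11.

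Gyg1 encodes glycogenin, the protein primer. Its log2 ratio was -1.17, -0.86, -0.93 and -0.84 in PFOS, against -0.94, -1.01, -0.998 and -0.92 in control livers. The control values all lay within the PFOS range. The change was 0.02 (SE 0.09, limma adjusted p = 0.937), with a 95% interval of -0.18 to 0.22, so the data allow a change of that size either way. Its Cy5 change was -0.02 (SE 0.09).

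Pgm1 encodes phosphoglucomutase, which links glucose 1-phosphate and glucose 6-phosphate in both directions. Its probe was spotted 10 times on each array, where the probes of the other 7 genes were spotted 2 times. Log2 ratios were 1.07, 1.06, 1.30 and 1.14 in PFOS, against 1.41, 1.18, 1.12 and 1.46 in control livers. The groups overlapped, and the change was -0.15 (SE 0.10, limma adjusted p = 0.45), with a 95% interval of -0.39 to 0.08. The SD among its spots on 1 array was 0.09 to 0.17, and the standard error of an array's mean thus 0.03 to 0.05. The SD between rats was 0.11 in PFOS and 0.17 in control livers, larger than that standard error. For the genes with 2 spots the median gap between both spots of an array ran from 0.05 for Gys2 to 0.29 for Pygl. The gap of Pygl reached 0.51 on 1 array, larger than its change between the diets, before the spots were averaged.

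Phkg2 encodes the catalytic subunit of phosphorylase kinase found in liver, which activates phosphorylase. Its log2 ratio was -0.25, -0.14, -0.34 and -0.41 in PFOS, against -0.13, -0.15, -0.23 and -0.15 in control livers. The groups overlapped through PFOS 2. The change was -0.12 (SE 0.08, limma adjusted p = 0.44), with a 95% interval of -0.31 to 0.06, and -0.10 (SE 0.09) in Cy5 alone.

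Ppp1r3b and Ppp1r3c encode glycogen-targeting subunits that bring protein phosphatase 1 to the particle, Ppp1r3b being the one known as the main hepatic form. Ppp1r3c had log2 ratios of 2.92, 2.77, 3.63 and 2.84 in PFOS, against 2.98, 2.81, 3.18 and 3.40 in control livers. PFOS 3 was the highest of all 8 values and the other PFOS livers were, with control 2, the lowest. The change was -0.05 (SE 0.20, limma adjusted p = 0.912), with a 95% interval of -0.51 to 0.40, and without PFOS 3 it was -0.25 and not called. Ppp1r3b was dim, with a Cy5 brightness of 93.5 to 171.75 units over a local background of 69.5 to 76.5 units, and it was well above background in Cy3 on 2 arrays of each diet. Its log2 ratios were 1.09, 1.00, 0.94 and 1.07 in PFOS, against 1.65, 1.78, 0.49 and 0.68 in control livers. The PFOS values lay together, between 2 higher and 2 lower control values. The change was -0.12 (SE 0.27, limma adjusted p = 0.839), with a 95% interval of -0.74 to 0.49.

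**Figure D2:**
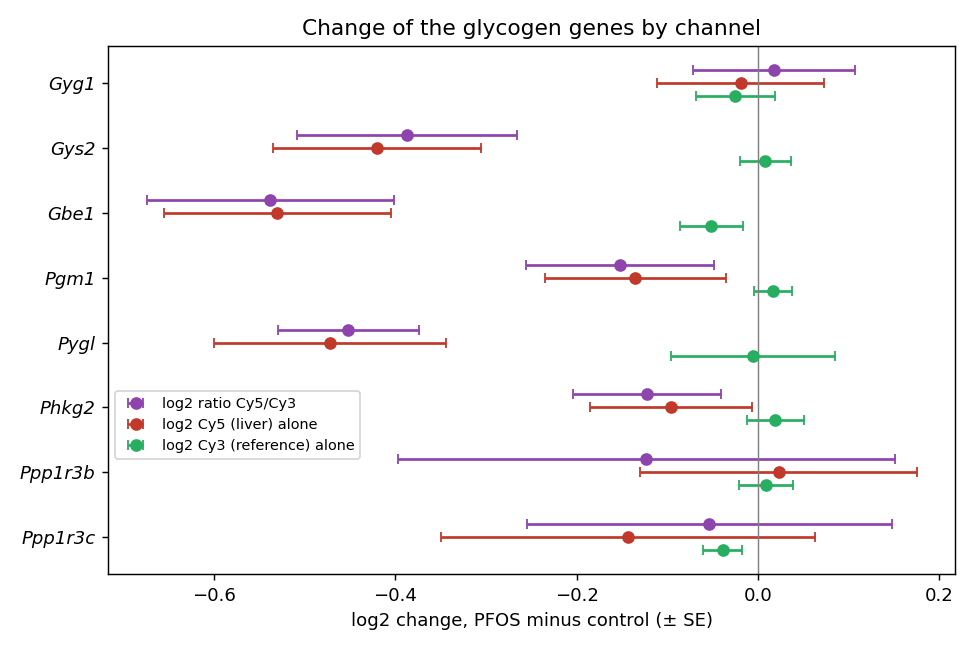
Log2 change, PFOS minus control, of the 8 measured glycogen genes in the ratio, in liver Cy5 alone and in reference Cy3 alone, with bars for the standard error (n = 4 each). Gbe1, Pygl and Gys2 lie between -0.54 and -0.39 in the ratio and in Cy5, and the Cy3 changes lie between -0.05 and 0.02.

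The Cy3 changes of these genes were -0.05 to 0.02, none was called in Cy3 (limma) and none had an unadjusted p under 0.05, where 0.0789% of all features were called and 2.55% had groups that did not overlap. Ratio and Cy5 differed most for Ppp1r3b, at -0.12 in the ratio and 0.02 in Cy5.

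The high and low control values of Ppp1r3b followed the slide row. In row 1 its ratio was 1.09 and 1.00 in PFOS, against 1.65 and 1.78 in control livers, a change of -0.67. In row 2 it was 0.94 and 1.07 in PFOS, against 0.49 and 0.68 in control livers, a change of 0.42. The difference between these changes, fitted as an interaction of diet and slide row over all features, was 1.09 (SE 0.17, unadjusted p = 0.000342 and adjusted p = 0.984 by limma), so it did not pass. No feature passed that test, and 547 had an unadjusted p under 0.05, which is 3.6% of those tested. The change of Pygl was -0.50 in row 1 and -0.40 in row 2, that of Gbe1 was -0.53 in row 1 and -0.55 in row 2, and that of Gys2 was -0.31 in row 1 and -0.46 in row 2. None of these was called within a row of 2 against 2 arrays. Slide row moves with overall brightness, and whether it or the animals account for the Ppp1r3b values cannot be told apart.

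**Figure D3:**
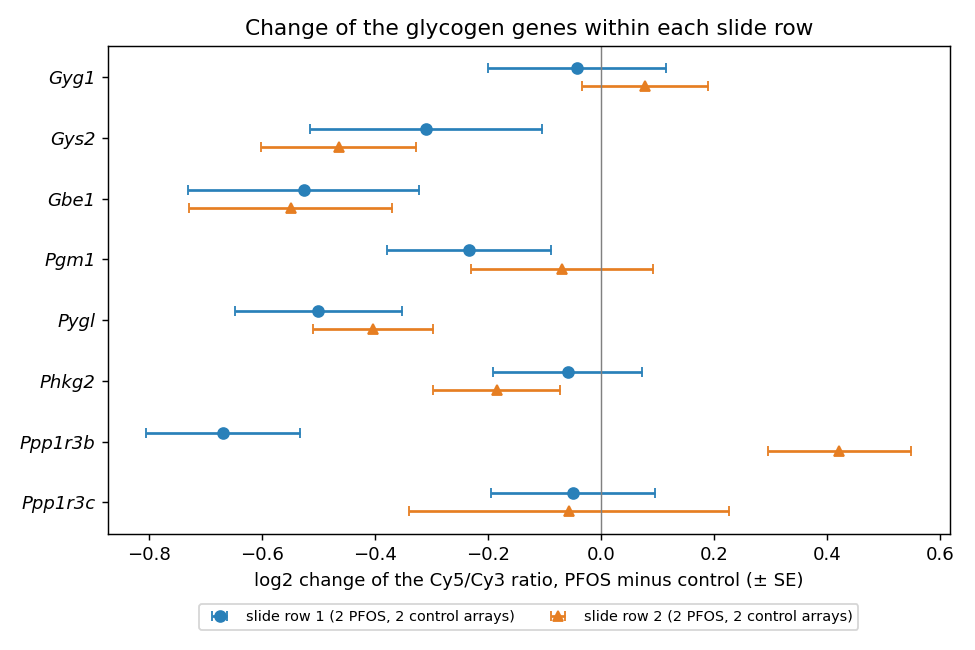
Log2 change of the ratio, PFOS minus control, within slide row 1 (circles) and slide row 2 (triangles), each with 2 PFOS and 2 control arrays, and bars for the standard error. Pygl, Gbe1, Gys2, Pgm1, Phkg2 and Ppp1r3c lie below 0 in both rows. Gyg1 lies at -0.04 in row 1 and at 0.08 in row 2, and Ppp1r3b at -0.67 in row 1 and at 0.42 in row 2.

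Of 53 further genes of glycogen metabolism and its control, 48 had a probe and 42 were tested. In the ratio 1 was higher, 3 were lower and 38 were not called, against the 3.99% called over all features, with 11 at an unadjusted p under 0.05 where all features had 19.9%. In Cy5 alone 1 was higher, 4 were lower and 37 were not called, against 4.81% called over all features. In that channel 10 had an unadjusted p under 0.05, where all features had 20.6%. The median change of the list was -0.09 in the ratio and -0.07 in Cy5, and 28 of 42 ratio changes were below 0, against 52.3% of all features. In Cy3 none of the 42 was called (limma), and 7 had an unadjusted p under 0.05, against 585 of all 15201 features. The synthesis group (4 tested), the phosphorylase kinase group (4), the phosphatase group (4), the kinases of glycogen synthase (7) and Nhlrc1, a ubiquitin ligase of glycogen quality control, held no called gene in limma. In this order 1, 1, 0, 4 and 0 of their genes had an unadjusted p under 0.05 in the ratio, where all features had 19.9%.

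In the ratio 2 of 12 tested genes of the hormone signal were called, both lower, 1 of 5 of glucose 6-phosphate supply and release, lower, and 1 of 5 of glycogen breakdown, higher, against 3.99% of all features. Prkaca, the catalytic alpha subunit of protein kinase A, had log2 ratios of 0.49, 0.44, 0.75 and 0.63 in PFOS, against 1.15, 1.23, 1.09 and 1.31 in control livers. The groups did not overlap, and it fell by 0.62 on the log2 scale (SE 0.09, limma adjusted p = 0.00776), a call kept with each array left out and lost with slide column as a block (limma adjusted p = 0.0518). The call was also lost within slide row 1 (-0.72, limma adjusted p = 0.113) and within slide row 2 (-0.51, limma adjusted p = 0.284). A second Prkaca probe had a change of -0.06 and was not called (limma adjusted p = 0.749), so the call holds for 1 of 2 probes. With the mean of both probes the change was -0.34 and was called (limma adjusted p = 0.035). Gcgr, the glucagon receptor, had log2 ratios of 7.73, 7.38, 7.92 and 7.52 in PFOS, against 8.35, 8.32, 8.14 and 8.15 in control livers, again with no overlap. The ratio fell by 0.60 log2 units (SE 0.12, limma adjusted p = 0.0311) and the Cy5 level fell by 0.87 (limma adjusted p = 0.00289), beside a Cy3 change of -0.31. That Cy3 change was not called (limma unadjusted p = 0.000564, adjusted p = 0.31), and its groups did not overlap. The ratio's call was lost without any 1 array but PFOS 3, at -0.63 to -0.52, while the Cy5 call held with each array left out. Neither call held within slide row 1 or slide row 2 alone. The ratio's call of Gcgr was also lost from processed signals (-0.13), with the authors' value table (-0.26), with scaling between arrays (-0.37), without background subtraction (-0.42), with offset 0 (-0.43), with median centring (-0.60) and with slide column as a block.

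Slc37a4, which carries glucose 6-phosphate into the endoplasmic reticulum for the last step of glucose release, had log2 ratios of 2.82, 3.21, 3.12 and 2.67 in PFOS, against 3.46, 3.47, 3.55 and 3.50 in control livers. It fell by 0.54 on the log2 scale (SE 0.12, limma adjusted p = 0.0427), with no overlap, and the call was lost without any 1 array but PFOS 2, at -0.60 to -0.45. It was also lost without background subtraction, with median centring, offset 0, scaling between arrays, processed signals, no filter on dim probes, eBayes with trend and robust options, and either block, at -0.54 to -0.45. Within slide row 1 the ratio change of Slc37a4 was -0.45 and within slide row 2 it was -0.63, called in neither. In Cy5 alone Slc37a4 fell by 0.56 (limma adjusted p = 0.0366), a call likewise lost without any 1 array but PFOS 2. That call was also lost with 75th percentile scaling, the processed red signal, either block and either slide row alone, at -0.72 to -0.41. Stbd1, which binds glycogen and takes it to membranes for breakdown in lysosomes, had log2 ratios of 4.02, 4.02, 4.25 and 4.23 in PFOS, against 3.92, 3.51, 3.45 and 3.46 in control livers. It rose by 0.54 on the log2 scale (SE 0.12, limma adjusted p = 0.0433), and the call was lost without any 1 array but control 1, at 0.50 to 0.58. It was also lost with offset 0, median centring, scaling between arrays, the authors' value table, no filter on dim probes, eBayes with trend and robust options, and either block, at 0.52 to 0.66. Within slide row 1 the change of Stbd1 was 0.31 (limma adjusted p = 0.538) and within slide row 2 it was 0.78 (limma adjusted p = 0.129). In Cy5 alone Stbd1 rose by 0.64 (limma adjusted p = 0.0204), a call lost without PFOS 3, control 2, control 3 or control 4 and within either slide row. The Cy3 change of Stbd1 was 0.06, not called, with groups that did not overlap. Adra1b, the adrenergic receptor of hepatocytes that raises calcium, had a ratio change of 0.05, while its Cy5 level fell by 0.52 (limma adjusted p = 0.0422). Beside it stood a Cy3 change of -0.50, not called (limma unadjusted p = 0.00391, adjusted p = 0.825), with groups that did not overlap. The Cy5 call of Adra1b was lost without any 1 array but PFOS 2. It was also lost with 75th percentile scaling, the processed red signal, either block and either slide row alone, at -0.62 to -0.41.

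**Figure D4:**
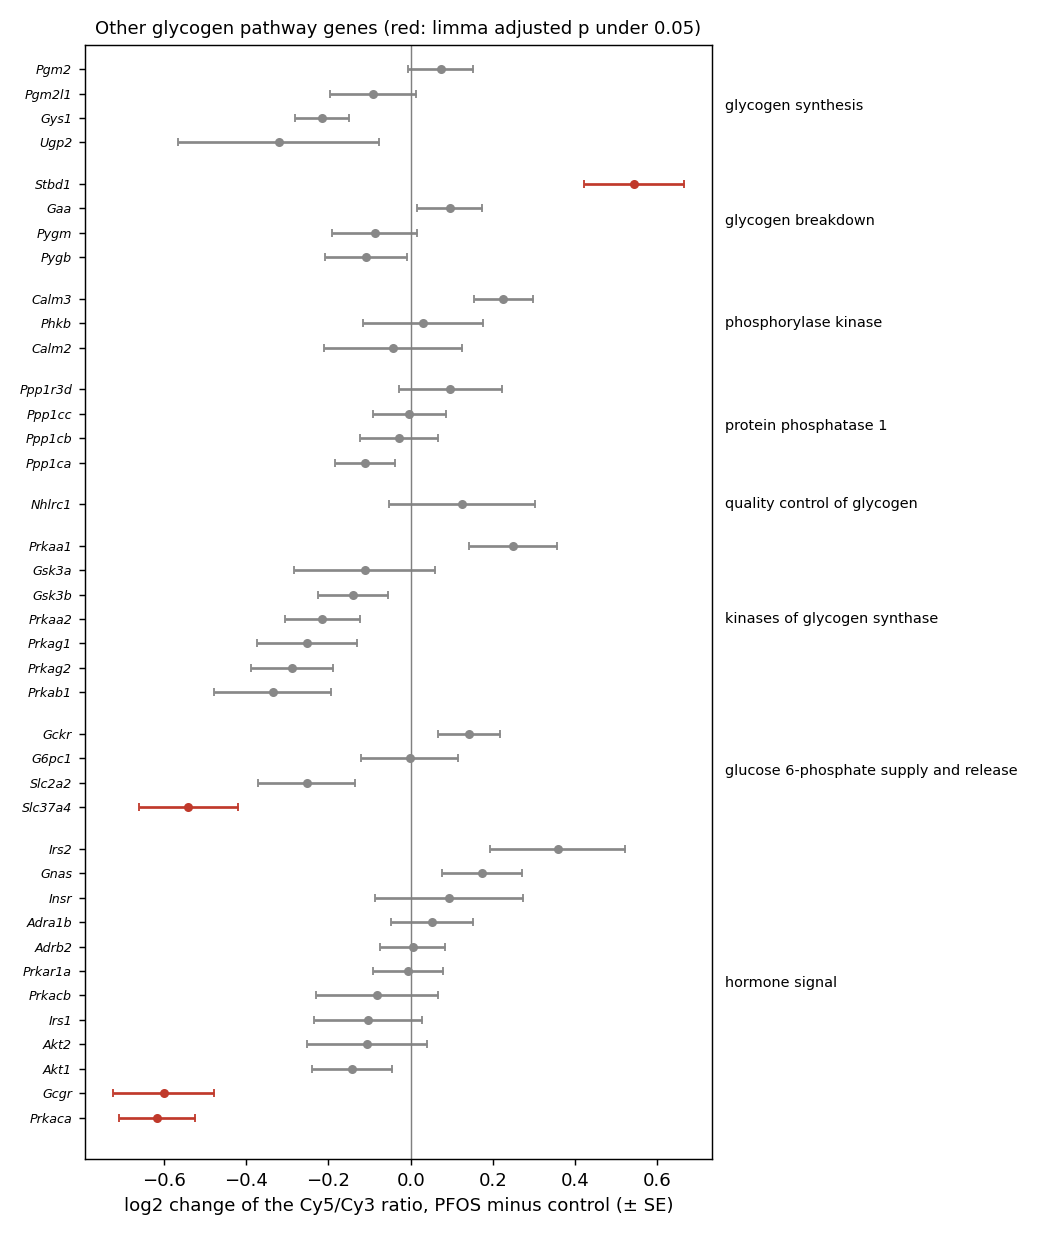
Log2 change of the ratio, PFOS minus control, with standard errors (n = 4 each), for further genes of glycogen metabolism and its control, in 8 groups. Red marks the 4 called genes: Stbd1 higher, and Slc37a4, Gcgr and Prkaca lower in PFOS.

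The other further genes described here were not called. G6pc1, the catalytic subunit of glucose 6-phosphatase, had a ratio change of -0.0028 and a Cy5 change of -0.14. Of the isoforms outside liver, Gys1, the synthase of muscle and other tissues, stood below the pool with log2 ratios of -2.98 to -2.92 in PFOS and -2.75 to -2.69 in control livers. Its groups did not overlap, and its change of -0.21 (SE 0.07) was not called (limma adjusted p = 0.115). Ugp2, which makes the UDP-glucose that the synthase uses, had a change of -0.32 (SE 0.24) and was not called. Calm3, a calmodulin gene whose protein is also a subunit of phosphorylase kinase, had a change of 0.22 (SE 0.07) and was not called (limma adjusted p = 0.127). Prkag2 and Prkaa2, subunits of the AMP-activated kinase, had changes of -0.29 (SE 0.10) and -0.22 (SE 0.09), neither called. Ppp1ca, a catalytic subunit of protein phosphatase 1, had a change of -0.11 (SE 0.07), Ppp1r3d, a further targeting subunit, one of 0.10 (SE 0.12), and Nhlrc1 one of 0.12 (SE 0.18), none called.

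As a description, the genes whose log2 ratios over the 8 arrays were most like those of Pygl were Mpc1, a subunit of the mitochondrial pyruvate carrier, Tspan31, Zfp266, Fuom and Ttc39c, with Pearson likeness of 0.97 to 0.98. Those most like Gbe1 in Cy5 alone were Slc2a5, the fructose transporter, Lsm1, Gcnt2, Appl2 and Tgfb3, at 0.96 each. The points are arrays of 2 diets on 1 slide, and the split by diet is part of the likeness. The change of Mpc1 was -0.83 in the ratio and that of Slc2a5 was -1.08 in Cy5.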

How the data were processed

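Liver RNA of 4 PFOS rats and 4 control rats was measured on two-colour arrays, with groups from the labels and replicate numbers in accession order, which pair nothing. Spot intensity in the files deposited by the authors was read by Feature Extraction (Agilent, version 10.7.3.1), as named per the file headers. A deposited table of values by the authors is in log2 ratios, with centring not given in the sources used here. It followed the loess-normalised log2 ratio without background subtraction (Pearson r 0.995 to 0.997 over probes, slopes 0.989 to 0.993), from which scale and direction were read. Its medians were -0.0518, -0.0609, -0.061 and -0.0527 in PFOS 1 to 4, and -0.048, -0.0539, -0.0518 and -0.0568 in control 1 to 4.

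Here, median signals (the files hold no mean signals) of all spots were background-corrected (normexp, offset 50), normalised by loess within each array with control spots at weight 0, cleared of outlier spots and averaged per probe. Cy5 and Cy3 alone were quantile normalised after the same correction. Of 30367 probes, 18004 were named by unversioned accession through a RefSeq table of GRCr8. Probes were kept (16947) if they had a value on each array and 4 or more of the 8 were well above background in Cy5, the probe brightest in Cy5 stood for a gene, and limma 3.58.1 in R 4.3.3 was fitted over all 15201 features, with Benjamini-Hochberg adjustment. Of these steps only the limma fit with its adjustment was tested on simulated data. The genes and lists were chosen with earlier results of these data known. Named in the text were the 9 genes, every called gene of the further list and the 2 with the lowest p in each of its groups, of which some are not reported here. G6pc1 was chosen after its values were seen. Of the further list, Gyg2, Pgm5, Ppp1r3f, Ppp1r3g and Epm2a had no matched probe, and Phka1, Phkg1, Ppp1r3a, Ppp1r3e, Prkab2 and Prkar2a did not pass the filter. Of the other cell type markers looked at, for stellate cells, cholangiocytes and adipocytes, none was called in the ratio, with 0, 1 and 0 at an unadjusted p under 0.05 in limma. Protein sequences were not used here.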

Additional observations from a re-analysis of the deposited data

Results flagged for a closer look

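Among 32 sets of 4 values (8 genes, 2 diets, ratio and Cy5), 2 held a value far from the other 3 by Dixon's test, where chance gives about 1 in 20. In Cy5 alone PFOS 4 was low for Gys2 (13.43, against 13.71 to 13.74 in the other PFOS livers), with a gap of 0.909 of the range. In Cy5 alone PFOS 3 was high for Ppp1r3c (13.29, against 12.42 to 12.52 in the other PFOS livers), with a gap of 0.887 of the range.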

How the results depend on the processing

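The labels share no replicate numbers between diets. No paired analysis was possible because numbers in accession order pair nothing; slide row and column were fitted as blocks instead. The number of the 8 genes called in the ratio, 1, was 0 with median centring, scaling between arrays, slide column as a block, slide row 1 alone and slide row 2 alone, and 1 under the other 19 alternatives. In Cy5 alone, 1 became 0 with 75th percentile scaling, the processed red signal, slide row or slide column as a block and either slide row alone, the last chosen after seeing the data, and 0 to 2 with an array left out. Of the 42 further genes, 4 called in the ratio became 2 without background subtraction, with processed signals, the authors' value table, no filter on dim probes, eBayes with trend and robust options or slide row as a block, 1 with normexp at offset 0, median centring, scaling between arrays or slide row 1 alone, 0 with slide column as a block or slide row 2 alone, and 1 to 2 with an array left out. In Cy5 alone, 5 became 3 with 75th percentile scaling, the processed red signal or slide row as a block, 1 in slide row 1 and 0 in slide row 2, and 2 to 5 with an array left out. The count over all features, 606 in the ratio, was 239 with median centring, 331 with scaling, 268 with slide column as a block, 93 and 32 within the rows and 350 to 519 with an array left out, and 731 in Cy5 was 407 with 75th percentile scaling, 446 with slide column as a block, 108 and 25 within the rows and 417 to 685 with an array left out. The cause of these losses was not tested. Fits within rows and with an array left out also held fewer arrays. Pygl, Gbe1, Gys2, Phkg2 and Pgm1 were below 0 under all 24 alternatives for the ratio and all 15 for Cy5. Of these genes, Phkg2 and Pgm1 were called under none. In the ratio Gyg1 was above 0 under 17 of 24, Ppp1r3b under 3 of 24 and Ppp1r3c under 4 of 24. In Cy5 Ppp1r3c was below 0 under all 15, while Gyg1 was above 0 under 4 and Ppp1r3b under 11. Dim signal limits Ppp1r3b.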
